A study of Mus musculus with 9 samples.

Results

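The genes described here carry out MHC class I antigen presentation, and 10 genes were named for it: H2-K1, H2-D1, B2m, Tap1, Tap2, Tapbp, Psmb8, Psmb9, Psmb10 and Nlrc5. They were chosen by name from the 52780 genes of the count table, with earlier results of these data known. Each of the 10 was found by its Ensembl identifier. A total of 9 of them passed the filter on low counts, as did 19545 genes in all, and Psmb9 did not. RNA came from C2C12 cells, an immortal mouse myoblast line that fuses into myotubes, collected at day 4 of differentiation. There were 3 samples in each of 3 conditions, named si mH2A1.1, si mH2A1.2 and si Ctrl. The cells of the first 2 conditions received siRNA against the macroH2A1.1 or macroH2A1.2 splice isoform of the histone gene H2afy, at 10 nM and repeatedly. The control samples are labelled wild type, and the study's methods list a scramble siRNA as control. All 9 samples are thus from 1 cell line, no interferon is named in the labels, and the sources used here do not say which of the siRNAs per isoform was sequenced.

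MHC class I molecules display peptides from inside the cell to cytotoxic T cells. Peptides are cut by the proteasome, in which the immunosubunits Psmb8, Psmb9 and Psmb10 can replace the standard catalytic subunits Psmb5, Psmb6 and Psmb7. The Tap1 and Tap2 transporter moves peptides into the endoplasmic reticulum, tapasin (Tapbp) helps to load them, and the heavy chains encoded by H2-K1 and H2-D1 pair with beta-2-microglobulin (B2m). Nlrc5 is a transactivator of class I genes, and interferons raise the expression of most of this pathway. Skeletal muscle cells are known for low class I expression at rest.

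The promoters are shown because most of these genes moved together. RefSeq promoter windows on GRCm38.p6, from 250 bases before to 50 after the start, were given for 8 of the 10 genes, and Tap2 and Nlrc5 were not matched. The 250 bases before the start of H2-K1 (chr17:34000348-34000597, minus strand) and of B2m (chr2:122147437-122147686, plus strand) are written 5′ to 3′, with matches to the 4 motifs searched in capitals:
H2-K1: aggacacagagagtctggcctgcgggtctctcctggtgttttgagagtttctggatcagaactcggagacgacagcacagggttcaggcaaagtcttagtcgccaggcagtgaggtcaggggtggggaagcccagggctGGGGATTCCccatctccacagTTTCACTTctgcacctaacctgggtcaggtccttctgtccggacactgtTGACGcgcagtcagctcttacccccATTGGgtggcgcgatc
B2m: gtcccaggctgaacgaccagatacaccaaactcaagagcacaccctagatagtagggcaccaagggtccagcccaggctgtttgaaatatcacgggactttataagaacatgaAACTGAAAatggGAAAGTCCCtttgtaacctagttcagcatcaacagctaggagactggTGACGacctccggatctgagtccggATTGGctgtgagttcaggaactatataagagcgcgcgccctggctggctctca

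The motifs were searched on both strands and did not overlap each other in these stretches. They were AANNGAAA, the core of interferon regulatory factor sites, GGGNNTTNC, a kappa B-type pattern, TGACG, a short element of the kind bound by CREB-type factors, and CCAAT, the box bound by NF-Y. AANNGAAA was found in 3 of the 8 windows (H2-K1, H2-D1 and B2m) and in 23.9% of the 32851 promoter windows of the table. The kappa B-type pattern was found in the same 3 windows and in 15.2% of all windows. TGACG was found in 5 of the 8 and 20.8% of all, and CCAAT in 6 of the 8 and 37.4% of all, where the windows of Tap1 and Psmb9 share 1 match of each and are counted separately. The windows of Psmb8 and Psmb10 held no match to any of the 4.

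A 30-base element that joins the kappa B-type and the interferon regulatory factor matches is shown for both heavy chain genes, because it was nearly the same in them (H2-K1 at chr17:34000429-34000458, H2-D1 at chr17:35262923-35262952):
H2-K1: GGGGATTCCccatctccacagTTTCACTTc
H2-D1: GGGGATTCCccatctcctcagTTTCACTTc
These were identical at 29 of 30 bases. All 30 bases of the H2-D1 element, and of the Tap1 stretch below, lie within annotated exons (GENCODE M21), and 0 of those of the H2-K1 element do. Counted from 1 at the 5′ end, the substitution from H2-K1 to H2-D1 was A18T, outside both capitalized matches. The windows of Tap1 and Psmb9 overlapped by 275 bases, since the genes start 225 bases apart in opposite directions, and both hold the same TGACG match (chr17:34187458-34187487, given on the strand of Tap1):
Tap1: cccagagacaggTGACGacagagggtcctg

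Totals ranged from 36924252 to 42223108 counts per sample. H2afy, the targeted gene, was read at 56.3, 62.4 and 61.0 CPM (counts per 1000000 counts of a TMM-scaled library) in the controls, 38.9, 30.01 and 30.9 after si mH2A1.1, and 46.8, 47.2 and 43.2 after si mH2A1.2. The gene total joins both isoforms and does not show which of them was depleted. The fall with si mH2A1.1 passed the test (log2 fold change -0.85 ± 0.11 SE, adjusted p = 0.00331) and the value with si mH2A1.2 did not (-0.39 ± 0.11, adjusted p = 0.108). Each si mH2A1.2 sample was below each control, and DESeq2 called this fall (adjusted p = 0.0405). The 10 muscle markers summed to 11540 to 17370 CPM over all samples. Leukocyte markers summed to 4.31 to 5.25 CPM with si Ctrl, 7.41 to 13.3 with si mH2A1.1 and 4.41 to 4.57 with si mH2A1.2.

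Class I presentation genes were higher after knockdown of macroH2A1.1. Of the 9 tested genes, 7 rose at an adjusted p below 0.05 and none fell, while 6.18% of all tested genes rose by the same rule. Their folds against si Ctrl lay between 1.64 for H2-D1 and 3.88 for Psmb8. With si mH2A1.2 none of the 9 passed edgeR's test in either direction, where 2.35% of all genes did, 1 (Nlrc5) had an unadjusted p below 0.05 and DESeq2 called 0. Between both knockdowns, 7 of 9 were higher with si mH2A1.1, against 12.0% of all genes. Over the 9 genes the median log2 fold change was 1.01 for si mH2A1.1 against si Ctrl, 1.03 between the knockdowns and -0.02 for si mH2A1.2. The median of all tested genes lay within 0.009 of 0 in each comparison. Both comparisons with si Ctrl use the same control samples. Since the genes were chosen with earlier results of these data known, the shares of all genes are given as a description. For counts at an unadjusted p or by DESeq2, here and below, no share of all genes is given.

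**Figure D1:**
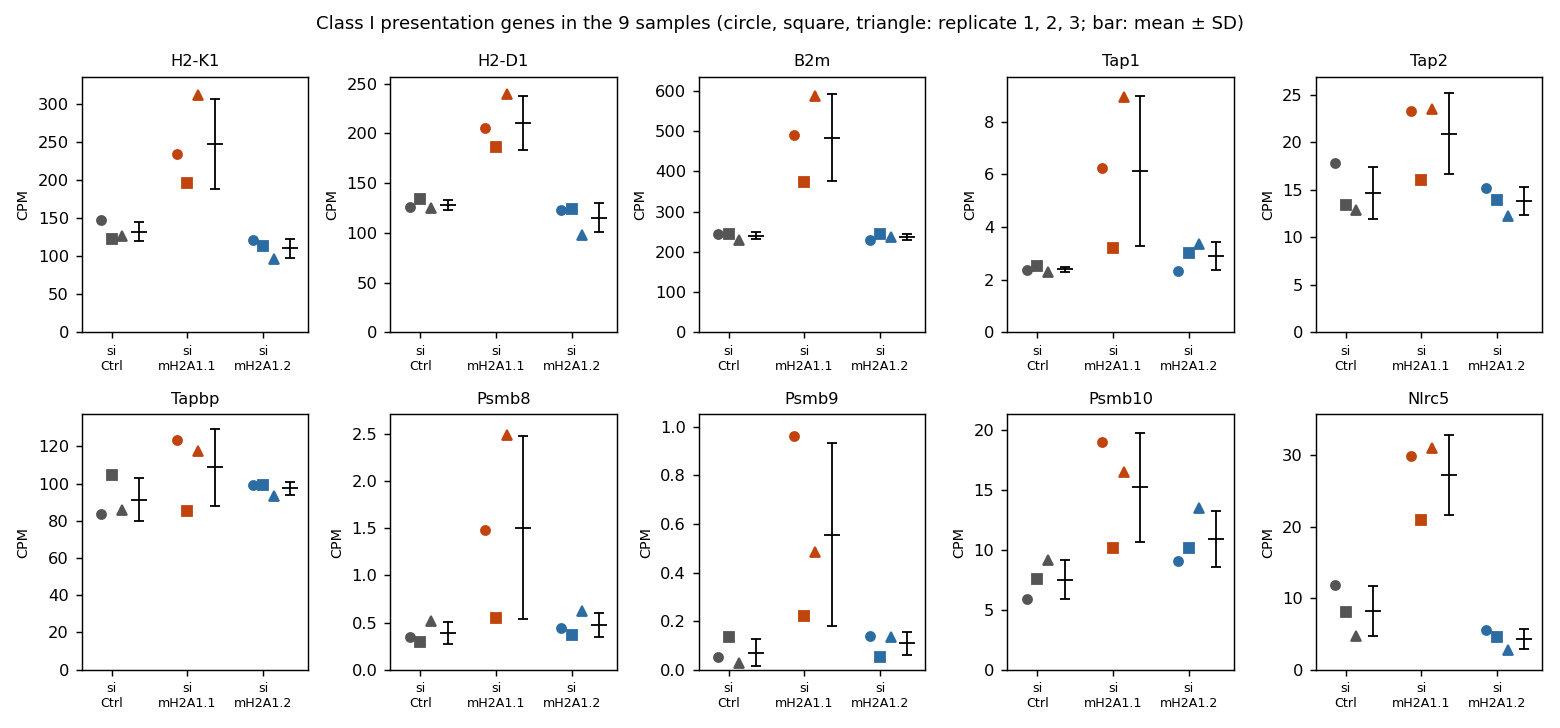
CPM (vertical axis, linear from 0) of the 10 class I presentation genes in each of the 9 samples, by condition; symbols mark the replicate number, and the bars give mean ± SD of 3 samples. Replicate 2 of si mH2A1.1 (square) is the lowest of its condition in each panel, and B2m with si mH2A1.1 lies between 373 and 588 CPM while the other samples lie between 229.7 and 245 CPM.

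The chains of the class I molecule were the most abundant of these transcripts. H2-K1 (ENSMUSG00000061232, chromosome 17 from 33996017 to 34000347) encodes the K heavy chain. Its level was 147, 123 and 127 CPM in the controls, 234, 197 and 312 after si mH2A1.1, and 121, 113 and 97.1 after si mH2A1.2. The 3 si mH2A1.1 samples lay above all others, and the si mH2A1.2 samples lay just below the controls. The rise with si mH2A1.1 was 1.87-fold (log2 0.90 ± 0.16, adjusted p = 0.0105), and the difference between the knockdowns was 2.24-fold (log2 1.16 ± 0.17, adjusted p = 0.00141). Against si Ctrl, si mH2A1.2 gave -0.26 ± 0.16 on the log2 scale (adjusted p = 0.48).

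H2-D1 (ENSMUSG00000073411, chromosome 17 from 35262730 to 35267499) encodes the D heavy chain and followed the same order. It was read at 126, 134 and 125 CPM in the controls, 206, 186 and 239.6 after si mH2A1.1, and 123, 124 and 98.2 after si mH2A1.2. The si mH2A1.1 samples did not overlap either other condition. The rise was 1.64-fold over si Ctrl (log2 0.71 ± 0.12, adjusted p = 0.00845) and 1.83-fold over si mH2A1.2 (adjusted p = 0.00142). Against si Ctrl, si mH2A1.2 gave -0.16 ± 0.12 (adjusted p = 0.595).

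B2m (ENSMUSG00000060802, chromosome 2 from 122147686 to 122153083) encodes the light chain shared by class I molecules. Its level was 245, 244 and 229.7 CPM in the controls, 489.7, 373 and 588 after si mH2A1.1, and 230, 243 and 236 after si mH2A1.2. Controls and si mH2A1.2 samples covered the same narrow range, and every si mH2A1.1 sample was above it. B2m rose 2.02-fold (log2 1.01 ± 0.15, adjusted p = 0.0046) and was the only member past the stricter rule of an adjusted p below 0.01 with a log2 value of 0.8 or more, by which 1.31% of all genes rose. Against si Ctrl, si mH2A1.2 gave -0.02 ± 0.15 (adjusted p = 0.971). By the stricter rule in the main edgeR test, H2-K1, H2-D1, B2m and Nlrc5 were higher with si mH2A1.1 than with si mH2A1.2, against 3.54% of all genes.

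Reads of 50 bp cannot always be placed among class I genes. Of all 50-base windows in annotated transcripts, 9.63% of H2-K1 and 12.8% of H2-D1 were shared with other genes, and 0 of those of B2m were. C2C12 cells derive from C3H mice, whose class I alleles differ from the reference strain, and the effect of this on the levels of H2-K1 and H2-D1 was not tested.

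Of the peptide transporter genes, 1 rose over si Ctrl and both were higher than with si mH2A1.2. Tap1 (ENSMUSG00000037321, chromosome 17 from 34187553 to 34197225) was read at 2.38, 2.51 and 2.29 CPM in the controls, 6.25, 3.21 and 8.92 after si mH2A1.1, and 2.34, 3.00 and 3.36 after si mH2A1.2. Replicate 2 of si mH2A1.1 was above each control but within the range of si mH2A1.2. The rise over si Ctrl was 2.56-fold (log2 1.36 ± 0.32, adjusted p = 0.0264), that over si mH2A1.2 was 2.11-fold (adjusted p = 0.0339), and si mH2A1.2 gave 0.28 ± 0.32 against si Ctrl (adjusted p = 0.745). The call between the knockdowns was lost with limma-voom (adjusted p = 0.0652) and in edgeR with only those 2 conditions (adjusted p = 0.0626).

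Tap2 (ENSMUSG00000024339, chromosome 17 from 34203527 to 34216321), the partner of Tap1 in the transporter, was read at 17.8, 13.4 and 12.8 CPM in the controls, 23.2, 16.0 and 23.5 after si mH2A1.1, and 15.2, 14.0 and 12.2 after si mH2A1.2. Replicate 2 of si mH2A1.1 lay inside the range of the controls. The log2 fold change was 0.51 ± 0.18 over si Ctrl (adjusted p = 0.0926; with the replicate number as a block, adjusted p = 0.0401). Tap2 was 1.51-fold higher with si mH2A1.1 than with si mH2A1.2 (log2 0.60 ± 0.18, adjusted p = 0.0392).

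Tapbp (ENSMUSG00000024308, chromosome 17 from 33915899 to 33929292), the loading chaperone tapasin, did not pass the test in any comparison. Its level was 83.7, 104.5 and 85.8 CPM in the controls, 123, 85.1 and 118 after si mH2A1.1, and 99.5, 99.4 and 93.2 after si mH2A1.2. The ranges of the 3 conditions overlapped, with a log2 fold change of 0.25 ± 0.14 for si mH2A1.1 against si Ctrl (adjusted p = 0.266). Tapbp overlaps Zbtb22 on the same strand, which was read at 791 to 1039 counts per sample.

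The immunosubunits were scarce in the control samples. Psmb8 (ENSMUSG00000024338, chromosome 17 from 34197721 to 34201454) had 13, 11 and 20 counts in the controls, 60, 22 and 108 after si mH2A1.1, and 16, 14 and 23 after si mH2A1.2. These are 0.348, 0.293 and 0.516 CPM, then 1.48, 0.543 and 2.49, then 0.441, 0.365 and 0.618. Replicate 2 of si mH2A1.1 stood just above the highest control and below the highest si mH2A1.2 sample. The rise was 3.88-fold over si Ctrl (log2 1.96 ± 0.50, adjusted p = 0.0354) and 3.17-fold over si mH2A1.2 (adjusted p = 0.0363). Neither call was kept by limma-voom (adjusted p = 0.0777 and 0.089) or by edgeR with only the samples of the 2 conditions compared (adjusted p = 0.0532 and 0.0588).

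Psmb9 (ENSMUSG00000096727, chromosome 17 from 34181987 to 34187764) had 2, 5 and 1 counts in the controls, 39, 9 and 21 after si mH2A1.1, and 5, 2 and 5 after si mH2A1.2. Every si mH2A1.1 sample was above every other sample. Summed over 3 samples, 69 counts stood against 8, a depth-scaled ratio of 7.88 with a 95% exact interval of 3.79 to 19.0 that covers counting error only. The ratio of si mH2A1.2 to si Ctrl was 1.52, with an interval of 0.573 to 4.30 that includes no difference. The filter left Psmb9 out of the main test, and without a filter its adjusted p was 0.00899 for si mH2A1.1 against si Ctrl and 0.0147 against si mH2A1.2. Psmb9 and Tap1 overlap on opposite strands, and reads of such a pair cannot be told apart unless strand was used, which is not given in the sources used here.

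Psmb10 (ENSMUSG00000031897, chromosome 8 from 105935735 to 105938444) was the most abundant immunosubunit, with 5.89, 7.54 and 9.13 CPM for si Ctrl, 19.0, 10.2 and 16.5 for si mH2A1.1, and 9.03, 10.12 and 13.5 for si mH2A1.2. The si mH2A1.1 samples were above all controls, while replicate 2 lay within the range of si mH2A1.2. The rise over si Ctrl was 2.02-fold (log2 1.02 ± 0.25, adjusted p = 0.0307). The difference between the knockdowns did not pass (log2 0.49 ± 0.25, adjusted p = 0.189), nor did si mH2A1.2 against si Ctrl (0.53 ± 0.25, adjusted p = 0.338).

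Nlrc5 (ENSMUSG00000074151, chromosome 8 from 94434356 to 94527272), the transactivator, showed the widest difference between the knockdowns among the 9 tested genes. It was read at 11.8, 8.07 and 4.74 CPM in the controls, 29.9, 20.9 and 31.0 after si mH2A1.1, and 5.53, 4.54 and 2.71 after si mH2A1.2. The si mH2A1.1 samples stood clear of both other conditions, and 1 of the si mH2A1.2 samples was above the lowest control. Each si mH2A1.2 sample was below the control of the same replicate number. Nlrc5 rose 3.31-fold over si Ctrl (log2 1.73 ± 0.33, adjusted p = 0.0127) and was 6.39-fold higher than with si mH2A1.2 (adjusted p = 0.000861). Against si Ctrl, si mH2A1.2 gave -0.95 ± 0.34 (adjusted p = 0.197; with the replicate number as a block, adjusted p = 0.103).

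**Figure D2:**
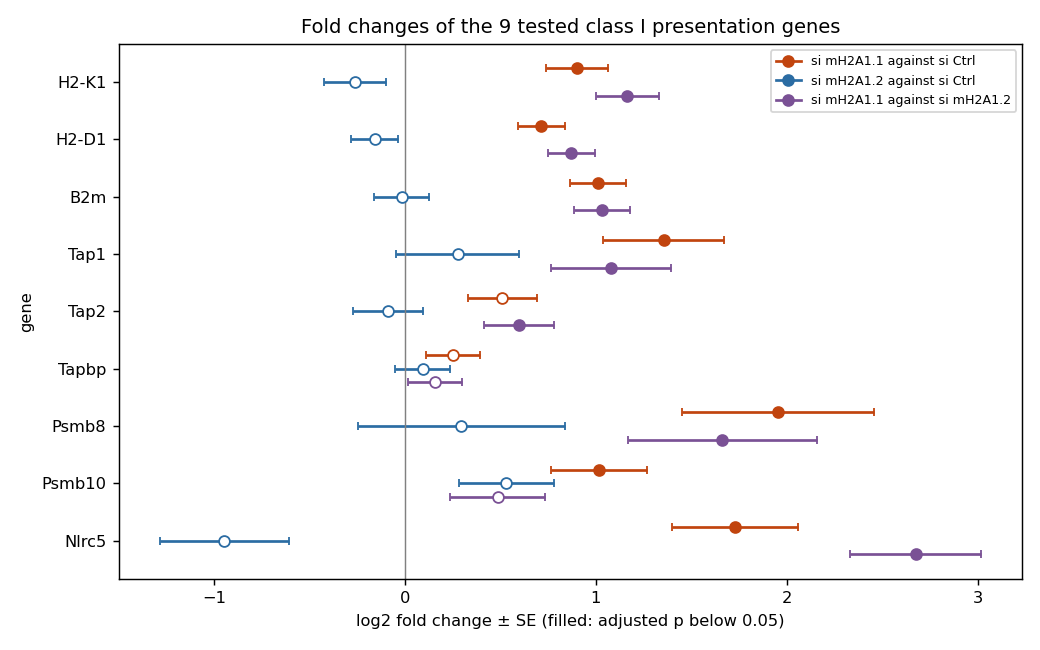
Log2 fold change ± SE (horizontal axis) of the 9 tested class I presentation genes (vertical axis) in the 3 comparisons; filled symbols passed an adjusted p below 0.05. Of the points for si mH2A1.1 against si Ctrl, 7 are filled, from 0.71 for H2-D1 to 1.96 for Psmb8, and none of those for si mH2A1.2 against si Ctrl is.

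Each si mH2A1.1 sample was above each control for 7 of the 9 tested genes, as for 17.5% of all genes, and above each si mH2A1.2 sample for 5 of 9, as for 20.3% of all genes. Replicate 2 of si mH2A1.1 was the lowest of its condition for all 10 genes, while its H2afy level of 30.01 CPM was the lowest of the 9 samples. The number of calls changed when single samples were left out. The share of all genes called in these refits is not given here. A trait of these 10 genes and a general change in power can thus not be told apart. With si mH2A1.1 against si Ctrl the number was 10, Psmb9 included, without replicate 2 of si mH2A1.1, 4 without its replicate 1 and 3 without its replicate 3. It was 4 without control replicate 1, 2 (H2-D1 and B2m) without control replicate 2, and 4 without control replicate 3. Between the knockdowns, 4 genes were called without replicate 1 or 3 of si mH2A1.1 or without replicate 2 or 3 of si mH2A1.2. These 4 were H2-K1, H2-D1, B2m and Nlrc5 each time.

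Levels of different genes were compared as CPM per kb of the principal transcript. With si Ctrl the order was B2m (278.5 ± 9.91 SD, n = 3), H2-K1 (81.9 ± 7.95), H2-D1 (61.1 ± 2.39), Tapbp (31.5 ± 3.96), Psmb10 (5.74 ± 1.24), Tap2 (4.26 ± 0.797), Nlrc5 (1.08 ± 0.468), Tap1 (0.811 ± 0.0357), Psmb8 (0.237 ± 0.0712) and Psmb9 (0.0524 ± 0.0413). Neighbours from Psmb10 to Tap2 and from Nlrc5 to Tap1 were less far apart than their summed SDs. The standard subunits Psmb6 (144 ± 11.9), Psmb7 (102 ± 12.2) and Psmb5 (48.4 ± 4.66) were far above their immunosubunit counterparts. With si mH2A1.1 the level of Psmb8 reached 0.924 ± 0.597 and that of Psmb9 0.412 ± 0.278 CPM per kb.

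Immunosubunits remained a small share of each catalytic pair after knockdown. Psmb8 made up 0.482% ± 0.101 (SD, n = 3) of Psmb8 plus Psmb5 in the controls, 1.33% ± 0.938 after si mH2A1.1 and 0.565% ± 0.0928 after si mH2A1.2. The si mH2A1.1 samples held 1.037%, 0.575% and 2.38%, and without replicate 3 the difference from si Ctrl went from 0.849 to 0.324 percentage points. Psmb9 made up 0.0372% ± 0.0298, 0.256% ± 0.138 and 0.0603% ± 0.0269 of Psmb9 plus Psmb6 in the same order. Psmb10 made up 5.27% ± 0.647, 8.16% ± 1.74 and 7.37% ± 0.847 of Psmb10 plus Psmb7. An exact two-sided permutation test of si mH2A1.1 against si Ctrl gave p = 0.2, 0.1 and 0.1 for these 3 pairs, and that of si mH2A1.2 gave 0.5, 0.4 and 0.1. With 3 samples against 3 the smallest p possible is 0.1, so that none of the 9 shares compared can pass 0.05. Of the windows of Psmb5, 54.1% are shared with other genes, and its level and share are uncertain to that extent. The shares also rest on the transcript length used. With the length of all exons of each gene, an alternative chosen after seeing the data, the difference of si mH2A1.1 from si Ctrl was 0.414 in place of 0.849 points for Psmb8 and 5.53 in place of 2.89 for Psmb10, and that of si mH2A1.2 was 4.07 in place of 2.10 for Psmb10.

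**Figure D3:**
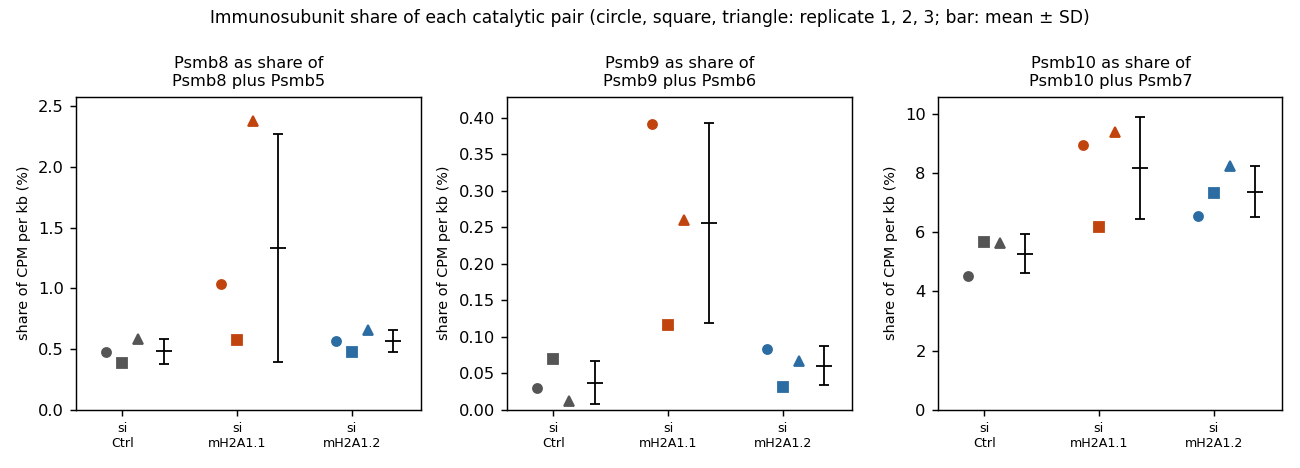
Share of each immunosubunit in its catalytic pair (vertical axis, percent of CPM per kb, from 0) in each of the 9 samples by condition; symbols mark the replicate number, and the bars give mean ± SD of 3 samples. Psmb10 is above every control in all si mH2A1.1 and si mH2A1.2 samples, and Psmb8 stays below 2.5% in each sample.

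The other genes of the pathway were described from lists. Of 18 tested class I and class I-like chains, 7 rose with si mH2A1.1 (H2-Q1, H2-Q2, H2-Q4, H2-Q6, H2-T24, H2-Bl and Cd1d1), 1 fell and 10 did not pass, where 6.18% of all tested genes rose and 4.93% fell. The list had a median log2 fold change of 0.62, and none of its genes passed with si mH2A1.2, where 4 had an unadjusted p below 0.05 and DESeq2 called 0. H2-Q4 was read at 29.0, 27.2 and 28.3 CPM in the controls, 58.8, 44.3 and 89.1 after si mH2A1.1, and 21.8, 20.4 and 18.8 after si mH2A1.2. The rise over si Ctrl was 1.18 ± 0.21 on the log2 scale (adjusted p = 0.00872), and 21.8% of its windows are shared with other genes. The chain that rose by the largest fold was Cd1d1, which presents lipids to natural killer T cells (log2 2.38 ± 0.36, adjusted p = 0.00502). With si mH2A1.2 it gave 1.03 ± 0.36 (adjusted p = 0.181; with the replicate number as a block, adjusted p = 0.046). Fcgrt, the neonatal Fc receptor, fell by 0.85 on the log2 scale (adjusted p = 0.0224).

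Of 13 peptide loading and trimming partners, 1 rose and 1 fell with si mH2A1.1 in edgeR's test, near the shares of all genes (6.18% and 4.93%). At an unadjusted p below 0.05 there were 6 of the 13, and DESeq2 called 4. With the replicate number as a block, 2 were called higher and 3 lower. Erap1, the aminopeptidase that trims peptides in the endoplasmic reticulum, rose by 0.77 ± 0.14 on the log2 scale (adjusted p = 0.0121). It was read at 19.3, 20.6 and 20.5 CPM with si Ctrl and at 38.1, 25.9 and 38.8 with si mH2A1.1. Thop1, a cytosolic peptidase that degrades peptides, fell with both knockdowns, by 0.53 with si mH2A1.1 (adjusted p = 0.0124) and by 0.58 with si mH2A1.2 (adjusted p = 0.0216). The chaperones Calr and Canx gave 0.26 ± 0.16 and 0.08 ± 0.11 with si mH2A1.1.

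Standard proteasome genes gave smaller log2 fold changes than the immunosubunits, a difference that was not tested. None of Psmb5, Psmb6 and Psmb7 passed edgeR's test with si mH2A1.1, with log2 fold changes of 0.51, 0.09 and 0.33. At an unadjusted p below 0.05 there were 2 of these 3, and DESeq2 called 1. Of the other 11 subunits of the 20S core, Psma3 and Psma4 rose, by 0.46 and 0.50, where 6.18% of all tested genes rose. Of these 11, 10 had a positive log2 fold change, with a median of 0.28 over the list. At an unadjusted p below 0.05 there were 6, and DESeq2 called 3. The share of all genes is not given for the sign, an unadjusted p or DESeq2, so these counts are descriptive only. For 7 of the 11 each si mH2A1.1 sample was above each control, as for 17.5% of all genes. The activator subunits Psme1 and Psme2 gave 0.20 ± 0.10 and 0.29 ± 0.10 (adjusted p = 0.221 and 0.0758), and none of the 9 activator and assembly genes passed, with 2 at an unadjusted p below 0.05 and 0 by DESeq2.

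Among the upstream genes, interferon transcripts were at the limit of detection. None of the 10 interferon genes passed the filter, and the highest value in any sample was 6 counts, so that a change in them was not detectable at this depth. Of 7 receptor and kinase genes, Ifngr2 and Tyk2 fell with si mH2A1.1, by 0.58 and 0.45, and the other 5 did not pass, where 4.93% of all genes fell. Ifngr2 also fell by 0.71 with si mH2A1.2 (adjusted p = 0.0465), and Ifngr1 gave 0.39 ± 0.09 (adjusted p = 0.0587; with the replicate number as a block, adjusted p = 0.0298).

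Of 14 tested transcription factors of class I promoters, 3 rose and 1 fell with si mH2A1.1, beside 6.18% and 4.93% of all genes. The largest rises were those of Irf7 and Irf9. Irf9, which takes part in the response to type I interferon, was read at 15.7, 12.7 and 12.8 CPM in the controls, 44.1, 30.11 and 59.6 after si mH2A1.1, and 20.3, 13.5 and 13.6 after si mH2A1.2 (log2 1.70 ± 0.24 for si mH2A1.1, adjusted p = 0.00453). Irf7, a factor induced by interferon, went from 1.93, 2.05 and 2.11 CPM with si Ctrl to 16.1, 10.6 and 35.9 with si mH2A1.1 (log2 3.36 ± 0.44, adjusted p = 0.00329). Replicate 2 was again the lowest of its condition for Irf9 and Irf7. The NF-Y subunit Nfyc rose by 0.61 and the subunit Nfya fell by 0.44. Irf1, Rfx5 and Rela did not pass, with log2 fold changes of -0.10, -0.12 and -0.05. None of the 14 passed with si mH2A1.2, where 2 had an unadjusted p below 0.05 and DESeq2 called 0.

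**Figure D4:**
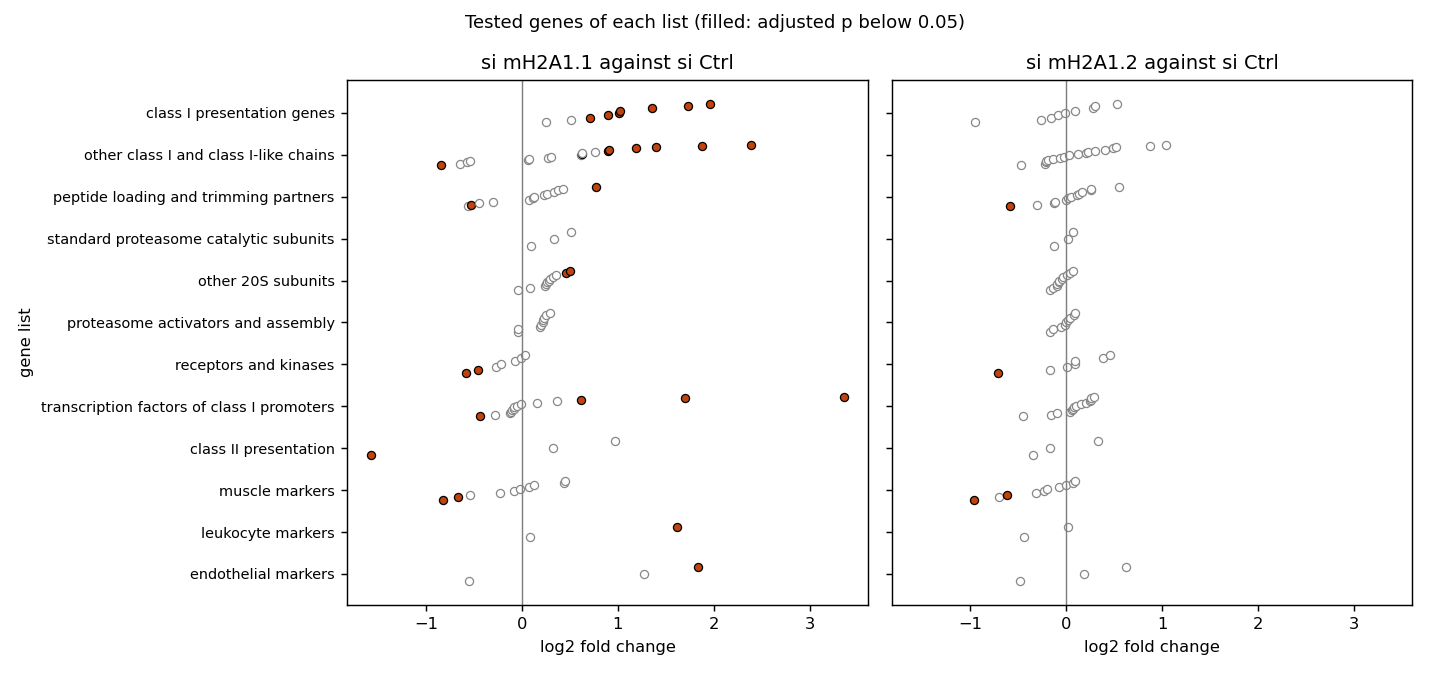
Log2 fold change (horizontal axis) of each tested gene of the class I presentation genes and 11 related lists (vertical axis), for si mH2A1.1 against si Ctrl on the left and si mH2A1.2 against si Ctrl on the right; filled points passed an adjusted p below 0.05. The 10 interferon genes had too few counts to be drawn, and the point farthest to the right is Irf7 at 3.36.

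Beside the calls in this paragraph, 6.18% of all tested genes rose and 4.93% fell with si mH2A1.1 in edgeR's test. Of 11 MHC class II genes, 3 were tested. The most abundant was H2-DMa, which helps to load class II molecules, with 88, 60 and 114 counts in the controls, 245, 106 and 212 after si mH2A1.1, and 71, 69 and 88 after si mH2A1.2. Its log2 fold change of 0.97 ± 0.32 with si mH2A1.1 did not pass (adjusted p = 0.0726), while DESeq2 called it (adjusted p = 0.0266) and it was higher than with si mH2A1.2 (log2 1.15 ± 0.32, adjusted p = 0.0283). Ciita, the class II transactivator related to Nlrc5, gave 0.32 ± 0.40 with si mH2A1.1 (adjusted p = 0.633). The class II chaperone Cd74 went the other way from H2-DMa and fell by 1.57 (adjusted p = 0.0321), from 18 to 27 counts with si Ctrl. Among 10 leukocyte markers 2 were tested, and Cd68, a lysosomal protein abundant in macrophages, rose by 1.62 ± 0.25 (adjusted p = 0.00565). Cd68 made up most of the summed leukocyte level given above. Without it the other 9 markers summed to 1.58 to 1.81 CPM with si Ctrl, 1.68 to 2.12 with si mH2A1.1 and 1.29 to 1.61 with si mH2A1.2. Itgam, the other tested leukocyte marker, had 28 to 54 counts per sample and gave 0.09 ± 0.23 with si mH2A1.1 (adjusted p = 0.834). The defining markers Ptprc and Adgre1 had at most 9 and 1 counts in any sample, and Cd3e at most 3. Lyz2 had 3, 0 and 0 counts with si Ctrl and 6, 2 and 8 with si mH2A1.1. Of 5 endothelial markers, 3 were tested and Tek rose by 1.84 (adjusted p = 0.033), from levels below 0.5 CPM with si Ctrl. Pecam1 gave -0.55 ± 0.24 (adjusted p = 0.162) and was lower than each control in all 3 si mH2A1.1 samples. Cdh5 gave 1.275 ± 0.695 (adjusted p = 0.249), from 0, 14 and 10 counts with si Ctrl. The 5 endothelial markers summed to 1.124 to 1.785 CPM with si Ctrl, 2.025 to 2.988 with si mH2A1.1 and 1.02 to 1.899 with si mH2A1.2. Within these sums Tek alone was read at 0.295 to 0.464 CPM with si Ctrl, 1.087 to 1.581 with si mH2A1.1 and 0.188 to 0.936 with si mH2A1.2. Of the 10 muscle markers, Myog and Mymx fell by 0.66 and 0.82 with si mH2A1.1 and none rose in edgeR's test. Myh3 was below every control in each si mH2A1.1 sample (log2 -0.54 ± 0.18, adjusted p = 0.0753), and DESeq2 called it lower (adjusted p = 0.0111). Ckm and Des were above every control in each si mH2A1.1 sample, with log2 fold changes of 0.44 and 0.45 (adjusted p = 0.134 and 0.0577). DESeq2 called Des higher (adjusted p = 0.00885). With the replicate number as a block, for which no share of all genes is given, 2 of the 10 (Ckm and Des) were called higher and 3 lower with si mH2A1.1. Tnnt3 and Des fell by 0.96 and 0.62 in the si mH2A1.2 samples, where 2.35% of all genes passed in either direction. The block called 3 of the 10 lower there. In these bulk samples, a changed share of cells that express a gene and a changed amount of RNA per cell cannot be told apart.

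A total of 7 of the 10 genes lie on chromosome 17. Psmb9, Tap1, Psmb8 and Tap2 form a cluster with 2 noncoding genes on the strand opposite to Tap2. Of those, Gm20496 had at most 4 counts and Gm15821 did not pass (log2 -0.13, adjusted p = 0.866). Between H2-K1 and Tap2, 9 other genes were tested with si mH2A1.1, of which 0 rose and 1 (Ring1) fell, with a median log2 fold change of -0.24. From Tapbp to beyond H2-T24, 107 genes outside both class I lists were tested, of which 6 rose and 5 fell, with a median of -0.05, where 6.18% of all genes rose and 4.93% fell. These 107 include the class I pseudogenes H2-K2 and H2-T-ps and the class II gene H2-DMa, which gave 0.50, 0.48 and 0.97 and were not called. In the same stretch 6 of the 12 tested genes on the list of other class I chains rose, with a median of 0.69. B2m on chromosome 2 and Psmb10 and Nlrc5 on chromosome 8 lie outside it and rose as well.

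**Figure D5:**
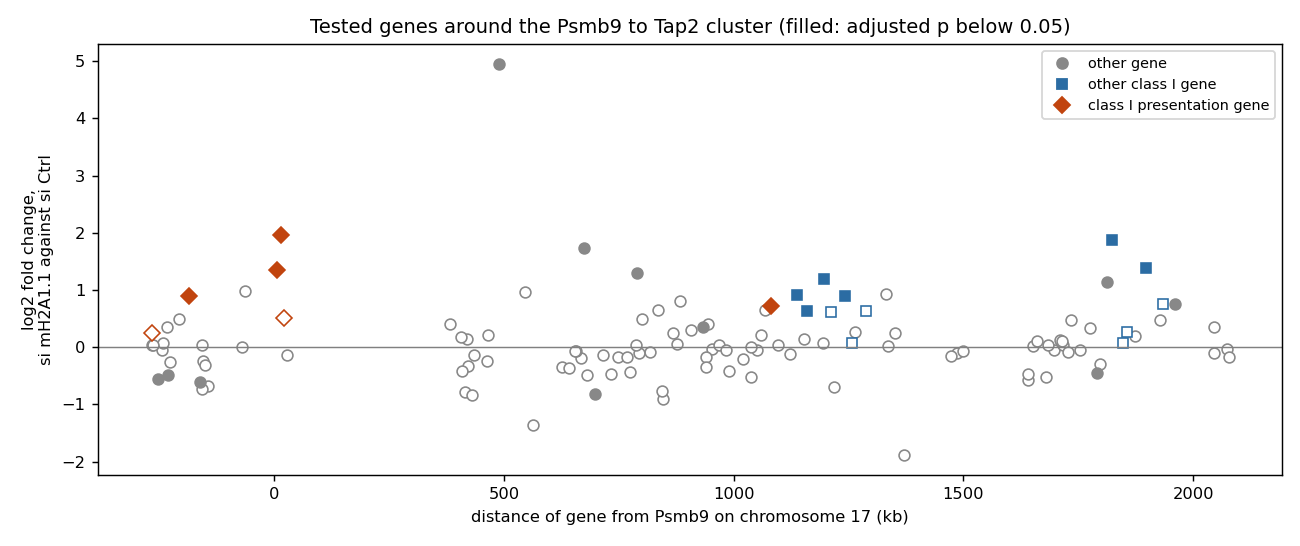
Log2 fold change with si mH2A1.1 against si Ctrl (vertical axis) of each tested gene by its distance from Psmb9 on chromosome 17 (horizontal axis, kb); diamonds are class I presentation genes, squares the listed other class I chains and circles all other genes, and filled symbols passed an adjusted p below 0.05. Of the 107 circles, 11 are filled, 6 above and 5 below 0, while the 6 filled squares and 4 filled diamonds are all above 0.

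The genes most like the class I presentation genes across the 9 samples were found by Pearson correlation of log2 CPM with the mean of the standardized values of the 9 tested genes, over 14373 genes of at least 1 CPM on average. They were Ifi35 (r = 0.989), Bst2 (0.984), Cd68 (0.981), Parp12 (0.980) and Eif2ak2 (0.977). The 9 points are 3 samples of each of 3 conditions, and r is given as a description. Bst2, the antiviral protein tetherin, was read at 9.65 ± 1.27 CPM (SD, n = 3) in the controls, 59.8 ± 38.0 after si mH2A1.1 and 11.9 ± 1.32 after si mH2A1.2. Eif2ak2, which encodes the kinase PKR that senses double-stranded RNA, was read at 35.7 ± 1.87, 86.0 ± 29.8 and 34.6 ± 1.81 CPM.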

How the data were processed

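RNA was sequenced by the authors as single reads of 50 bp from 9 samples, and Salmon estimated reads per gene on GRCm38 (mm10 in the submitters' processing notes). The deposited expected counts are whole numbers without normalization, and the other deposited table holds a normalized signal, these counts divided by 1 size factor per sample, which was checked and not used further. The annotation release is not given in the sources used here, and names, positions and lengths came from GENCODE M21, which holds 52762 of 52780 genes. Groups and replicate numbers came from the labels. The study's legend calls the replicates independent biological ones.

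Rounded counts of all genes were tested in R 4.3.3 with edgeR 4.0.16 (quasi-likelihood, legacy form, TMM, filterByExpr, 1 model of 9 samples, Benjamini-Hochberg over 19545 genes), and a gene was called at an adjusted p below 0.05, as in the study's methods. DESeq2 1.42.0 and limma-voom (limma 3.58.1) were alternatives, beside other filters, scalings, call rules and samples left out. Log2 fold changes carry a standard error. A floor of 3 counts was used, and intervals cover counting error only. Replicates differed by more than sampling noise.

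Deviations from group means correlated between same-numbered samples of si Ctrl and si mH2A1.2 with r of 0.196 to 0.331, each above 0.1, and the sample codes of the labels run consecutively within each replicate number, though no shared batch or day is stated. The 10 genes and all lists were chosen with earlier results of these data known. The genes that could be named were all 10 members, any gene of the lists called in a comparison, the genes of the Psmb9 to Tap2 cluster and the 5 genes most correlated with the members, and others named were chosen after their values were seen. The values of 1 gene were left out. Cell type markers were lists for muscle, leukocytes and endothelium. Promoter sequences are from RefSeq (GRCm38.p6), and shared 50-base windows were counted over the GENCODE transcripts. Python 3.11.15 was used with pandas 2.3.3, scipy 1.17.1 and matplotlib 3.10.9.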

Additional observations from a re-analysis of the deposited data

How the results depend on the processing

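Each of the 9 tested genes kept its direction with si mH2A1.1 against both other conditions under every alternative that was run. In the main edgeR test the stricter rule (adjusted p below 0.01 with a log2 value of 0.8 or more) left 1 gene against si Ctrl and 4 between the knockdowns. Against si Ctrl, DESeq2 and the replicate block put more of the genes past it, as named with B2m above. Leaving out 1 sample at a time gave 2 to 10 called genes for si mH2A1.1 against si Ctrl, 4 to 9 for si mH2A1.1 against si mH2A1.2 and 0 for si mH2A1.2 against si Ctrl, and median log2 fold changes of 0.849 to 1.202, 0.769 to 1.244 and -0.018 to 0.064. The median for si mH2A1.2 against si Ctrl was 0.033 with DESeq2 and 0.039 without a filter on low counts, in both of which Psmb9 is included. That median, -0.018 as reported, thus changed sign, and among the single genes only Tap2 did, with -0.184 to 0.076 for si mH2A1.2 when 1 sample was left out, the positive value coming without control replicate 1. DESeq2 called 8, 0 and 8 genes, and limma-voom and fits with only the samples of the 2 conditions called 6, 0 and 5, with Psmb8 lost in the first and Psmb8 and Tap1 in the last. With the replicate block, 8, 0 and 7 genes were called, the added gene being Tap2. Over all lists the block added 12 calls with si mH2A1.1 against si Ctrl and lost none, among them Mr1, Lnpep and Ifnar2 as lower (adjusted p = 0.00798, 0.0132 and 0.0444) and H2-DMa, H2-Q5 and Psmb5 as higher (adjusted p = 0.021, 0.0449 and 0.0428). It added 3 calls with si mH2A1.2, and 10 between the knockdowns, where it lost H2-T24. The share of all genes called is not given for the block, the other alternative fits, the fits with a sample left out or an unadjusted p. A change in calls that is general to all genes can thus not be told apart from one of the listed genes. Same-numbered samples correlated with r of 0.084 to 0.098 between si Ctrl and si mH2A1.1 and of 0.092 to 0.116 between the knockdowns, not all above 0.1, though every sample correlated best with its own number. The length of all exons of each gene, an alternative chosen after seeing the data, changed no direction of the immunosubunit shares but moved the differences of Psmb8 and Psmb10 by over 1.5 times. Without division by length, the difference of si mH2A1.1 from si Ctrl was 1.51 points for Psmb8, 0.369 for Psmb9 and 3.21 for Psmb10.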
